A study of Rattus norvegicus with 12 samples.

Results

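The Slc25 family comprises small membrane proteins that carry nucleotides, phosphate, organic acids, amino acids and cofactors, mostly across the inner membrane of mitochondria. Its genes were measured in the rat urinary bladder after loss of nerve supply. Members were all genes whose platform symbol begins with Slc25 and whose probe set names that gene alone, and for a gene with several probe sets the brightest stood for it. This gave 44 of the 18166 genes measured. Another 2 probe sets carry the symbols Slc25a5 and Slc25a6 together, and these ADP/ATP carriers get no value here. The rule itself uses symbols and brightness and no change between the groups, but the family was picked for description with earlier results of these data known. The name mitochondrial fits most but not all of them, since Slc25a17 is known as a carrier of peroxisomes and Slc25a46 as a protein of the outer mitochondrial membrane.

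The study set 6 denervated bladders against 6 bladders of sham-operated rats, with 1 array per sample, to learn how expression responds to loss of innervation. Denervated bladders were those of female Sprague Dawley rats, about 3 months old, taken 10 days after surgery in which the ganglia (in the labels, pelvicus) were frozen on both sides. Sham bladders were those of females of the same strain and age after surgery without freezing, so both groups had been operated on. The time from sham surgery to sampling is not stated, so whether it was also 10 days is not known. No label ties arrays to separate rats, and p-values then measure only the spread between these samples, which may be technical.

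Values are log2 expression values, and array medians over all probe sets lay between 5.82 and 5.90. Differences are denervated minus sham on the log2 scale, with the standard error (SE, n = 6 per group). A gene is called, and said to have risen or fallen, when its adjusted p in the limma fit over all 18166 genes was under 0.05. On the first principal component of all genes, which held 58.0% of the variance, the score of denervated replicate 2 was 5.84. The remaining denervated arrays scored -42.52 to -25.94 and the sham arrays 22.45 to 30.24. The count of members that fell and the changes of several members are also given without this array. The tissue is labelled as almost wholly smooth muscle, and its brightest listed markers, Myh11, Tagln, Des and Actg2, had sham means of 12.91 to 13.32. The other measured muscle markers, Synpo2, Myocd, Lmod1 and Smtn, had sham means of 9.68 to 12.17. The brightest urothelial markers, Upk1a, Upk1b, Upk2 and Upk3a, were also far above the array medians, with sham means of 12.44 to 12.72. The other measured urothelial markers, Grhl3, Gata3, Upk3b and Krt20, had sham means of 8.52 to 10.97.

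Most of what a carrier of this family does follows from the impermeability of the inner mitochondrial membrane. ATP made in the matrix leaves in exchange for ADP, phosphate must be brought in, and reducing equivalents of the cytosol enter through shuttles of malate and aspartate. Other members bring in the cofactors that matrix enzymes need, or move amino acids, acylcarnitines and iron. In smooth muscle, mitochondria also take up calcium, and several members bear calcium-binding domains through which cytosolic calcium regulates transport.

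Members of the family fell in denervated bladders, and none was called higher. Of the 44 members, 18 fell, 0 rose and 26 were not called by limma, and 1 of the uncalled members, Slc25a45, was higher at an unadjusted p under 0.05. Over all genes 16.9% were called lower and 11.9% higher, so the 40.9% of members that fell stands above the share of all genes. The groups did not overlap for 10 members, in each case with all denervated values below all sham values, against 7.59% of all genes in that direction and 5.76% in the other. The median difference over the 44 members was -0.16, against -0.04 over all genes, and 37 members (84.1%) had a difference below 0, against 57.4% of all genes. Most falls were small. Slc25a23 was the single member that fell by more than 2-fold, and 9 members fell by more than 1.2-fold.

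**Figure D1:**
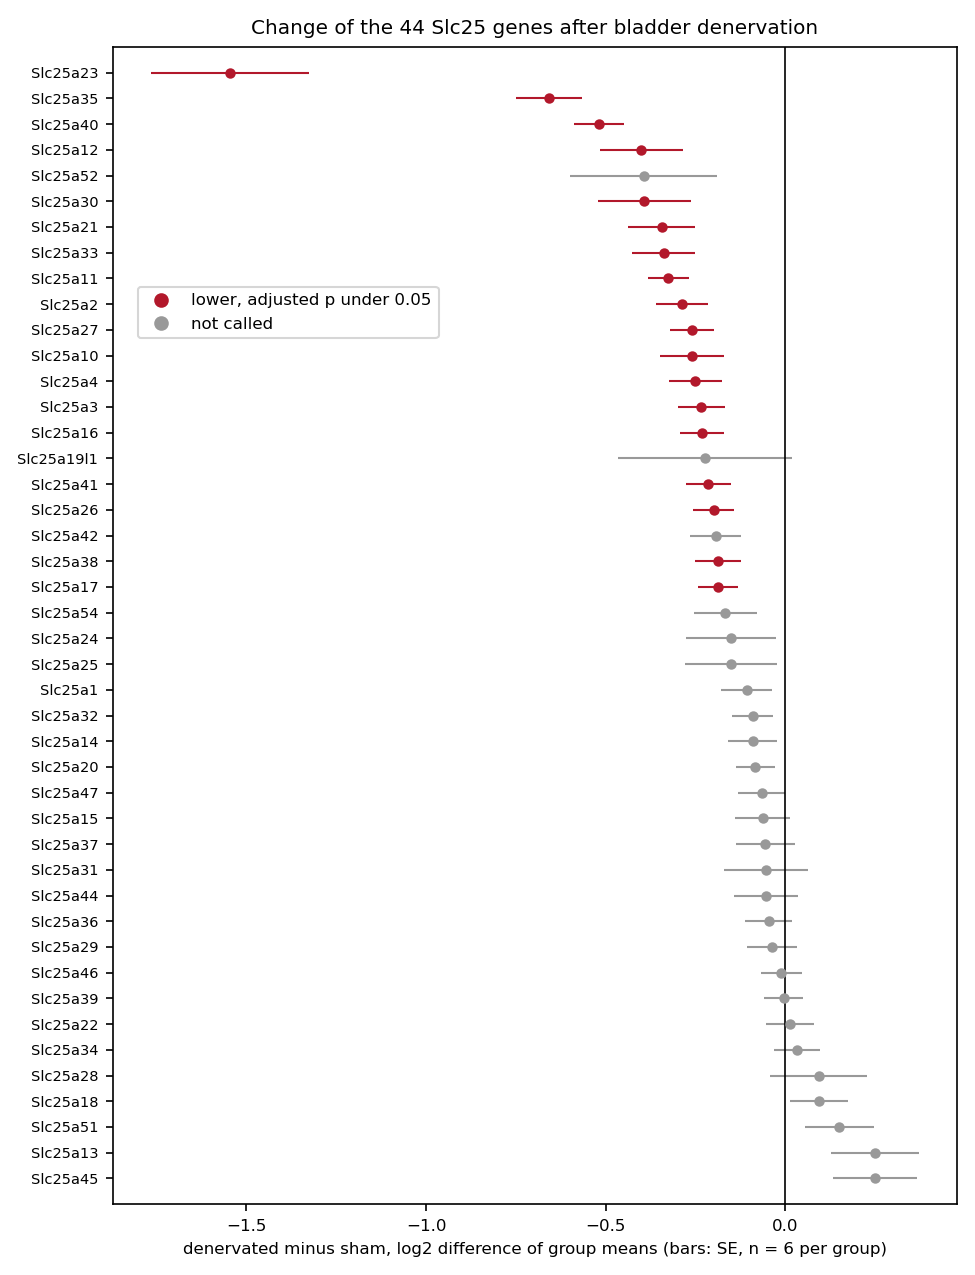
Log2 difference between denervated and sham group means for each of the 44 Slc25 genes (points, with SE bars, n = 6 per group), ordered from the largest fall at the top, with called genes in red and uncalled ones in grey. Slc25a23 stands apart at -1.54, the other 17 called genes lie between -0.66 and -0.19, and the highest point is Slc25a45 at 0.25.

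Bright genes were called more often than dim ones in these data. Among members brighter than the median gene, 13 of 26 fell, against 25.9% of all genes of that kind. Among dimmer members 5 of 18 fell (27.8%), against 7.82% of all dimmer genes. In other gene families of the organelle, 32 of 49 genes whose symbols begin with Nduf (subunits and assembly factors of respiratory complex I) fell (65.3%) and 0 rose, with a median of -0.26. Of 72 mitochondrial ribosomal protein genes 20 fell and 1 rose, with a median of -0.14. The share that fell, 27.8%, was above the 16.9% of all genes but near the 25.9% of genes brighter than the median gene. The 302 genes of all other Slc families, which sit mainly in the plasma membrane and other organelles, had 50 falls and 43 rises and a median of -0.03.

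**Figure D2:**
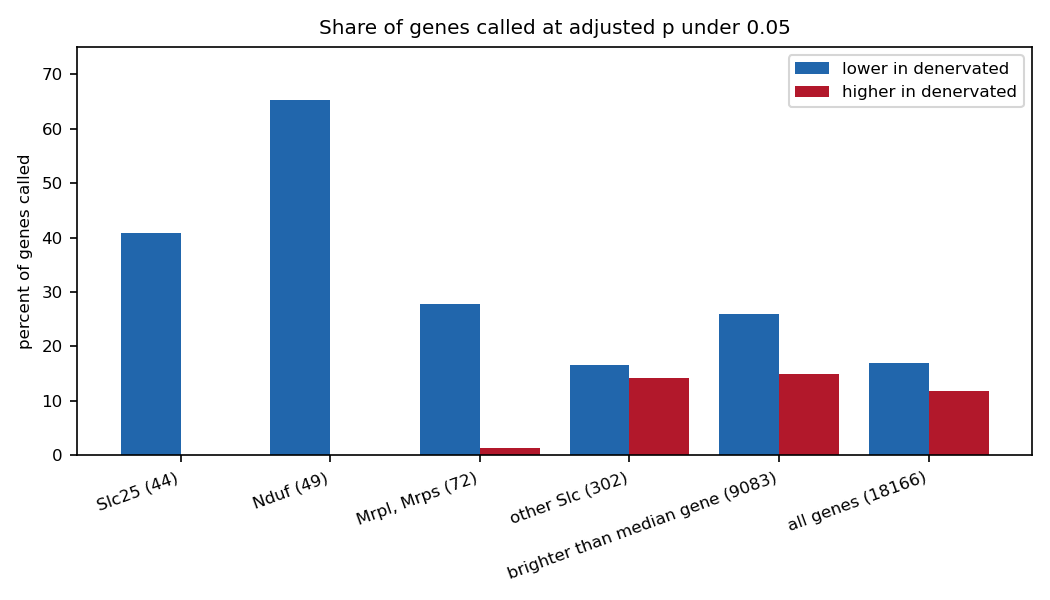
Percent of genes called lower (blue) and higher (red) in denervated bladders, with the number of genes of each set in brackets. The Slc25 genes had 40.9% lower and 0.00% higher, between the complex I genes (65.3% lower) and the mitochondrial ribosomal protein genes (27.8% lower), while the other Slc genes stood at 16.6% lower and 14.2% higher.

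The shift was seen on every denervated array. The mean over the 44 members relative to their sham means was -0.19 in denervated replicate 1, -0.16 in replicate 2, -0.17 in replicate 3, -0.19 in replicate 4, -0.20 in replicate 5 and -0.17 in replicate 6. Sham arrays lay between -0.03 and 0.06 on this measure, and the mean over all genes stayed between -0.02 and 0.02 on the 12 arrays. On this mean over all 44 members, called or not, denervated replicate 2 was close to the rest of its group. It lay between the groups on the first principal component, and was the highest of its group for 11 of the 18 called members. Its mean also includes the dim Slc25a52 at -1.14. Of the 18 called members, 14 stood below every sham value in denervated replicate 2, while the count was 16 to 17 for the remaining denervated arrays. Without that array 16 members fell and 0 rose.

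**Figure D3:**
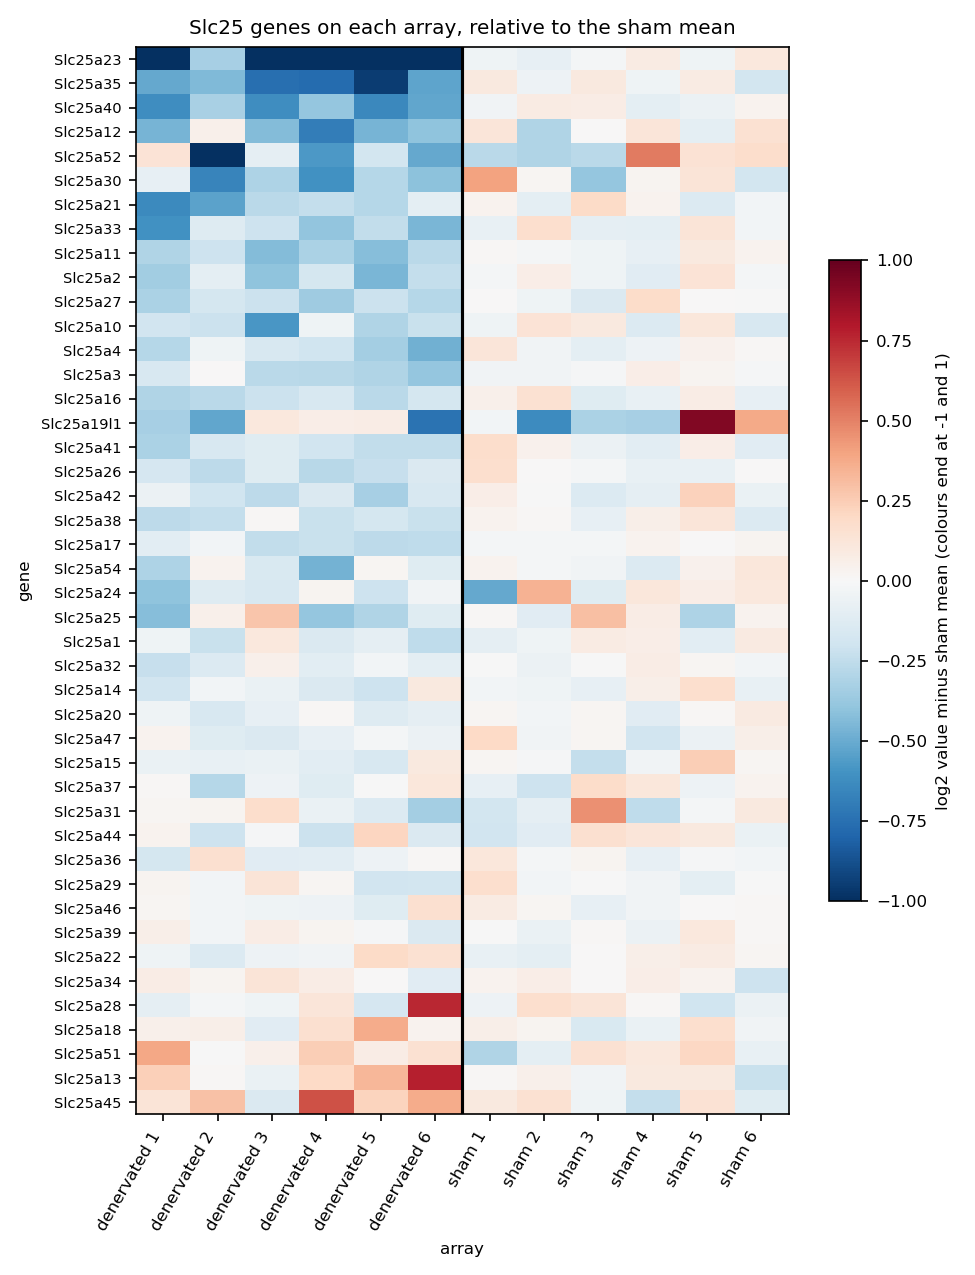
Log2 value of each Slc25 gene on each array minus the gene's sham mean, with the 6 denervated arrays left of the line and the 6 sham arrays right of it. Blue cells fill the upper rows of the denervated arrays, Slc25a23 is paler in denervated replicate 2 (-0.34), and Slc25a28 and Slc25a13 are red in denervated replicate 6 (0.75 and 0.78).

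The calcium-regulated carriers of ATP-Mg against phosphate adjust the adenine nucleotide content of the matrix. Slc25a23, whose protein is of this kind, had a lowest value of 7.19, a median of 7.45 and a highest value of 8.85 in denervated arrays, against 9.11, 9.15 and 9.29 in sham arrays. Every denervated value was below every sham value, and the highest of them was that of denervated replicate 2. Slc25a23 fell by 1.54 ± 0.22 on the log2 scale, or 2.92-fold (adjusted p = 0.00036), the 30th largest fall of the 18166 genes. Without denervated replicate 2 its difference was -1.79 (adjusted p = 2.14e-08).

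Slc25a41, a relative that lacks the calcium-binding domain, is the next protein-coding gene to Slc25a23 on chromosome 9 of the RefSeq annotation of GRCr8. It was dim, with a lowest value of 4.80, a median of 4.89 and a highest of 4.99 in denervated arrays, against 4.99, 5.10 and 5.28 in sham arrays. These ranges all but touch, with 4.986 as the highest denervated and 4.993 as the lowest sham value, and Slc25a41 fell by 0.21 ± 0.06 (adjusted p = 0.0219). Slc25a24 and Slc25a25, the remaining calcium-regulated members, were not called, at -0.15 ± 0.12 and -0.15 ± 0.13. Their denervated and sham values overlapped.

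Promoter windows of 300 bases, with 250 bases before and 50 after the start of each gene, were available from RefSeq (GRCr8) for 37 of the 44 members, among them 16 of the 18 that fell. They were searched on both strands for the NRF1 motif, TNAAGGTCA (the estrogen-related receptors), TGACGTCA (the cyclic AMP response element, CRE), CCGGAAGTG (GABP), AAGATGGCG (YY1), CACGTG (the E-box) and the CArG box of serum response factor. Windows of the 3 called members that held any of these matches are shown, a choice made after the matches were seen, with the matches in capitals, which do not overlap each other. The minus-strand window of Slc25a23 at chr9:1985316-1985615 holds a CArG box at position -184 from the start. That of Slc25a33 at chr5:165502924-165503223, minus strand, holds a CRE and an E-box, and that of Slc25a2 at chr18:29707514-29707813, minus strand, an E-box.
Slc25a23: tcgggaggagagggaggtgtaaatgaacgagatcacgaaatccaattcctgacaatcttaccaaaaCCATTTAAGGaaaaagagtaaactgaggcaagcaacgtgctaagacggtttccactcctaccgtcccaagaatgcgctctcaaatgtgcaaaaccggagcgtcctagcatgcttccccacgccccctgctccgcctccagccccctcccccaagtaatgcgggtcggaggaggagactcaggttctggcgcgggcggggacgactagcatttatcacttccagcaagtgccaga
Slc25a33: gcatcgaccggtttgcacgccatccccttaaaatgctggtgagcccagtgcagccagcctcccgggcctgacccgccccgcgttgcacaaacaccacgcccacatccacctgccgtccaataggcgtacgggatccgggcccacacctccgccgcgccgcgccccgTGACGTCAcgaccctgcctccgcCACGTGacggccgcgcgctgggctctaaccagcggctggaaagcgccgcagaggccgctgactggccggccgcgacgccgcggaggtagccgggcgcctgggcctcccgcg
Slc25a2: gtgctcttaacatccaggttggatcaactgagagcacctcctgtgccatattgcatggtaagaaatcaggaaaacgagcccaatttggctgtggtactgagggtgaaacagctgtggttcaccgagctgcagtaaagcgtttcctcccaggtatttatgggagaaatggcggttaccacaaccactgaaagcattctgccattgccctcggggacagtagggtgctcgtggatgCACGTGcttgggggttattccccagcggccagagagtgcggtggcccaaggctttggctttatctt

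A CArG box was held by 1 of the 37 member windows (2.70%), that of Slc25a23, against 1.64% of 27457 promoter windows of all genes. For the CRE the share was 5.41% of member windows (2 of 37) against 1.91% of all windows, and for the E-box 10.8% (4 of 37) against 6.65%. NRF1 matches stood at 5.41% against 4.71% and YY1 matches at 2.70% against 1.93%. No member window held the letters searched for GABP or the estrogen-related receptors, which 1.98% and 1.15% of all windows hold. Among the windows of members that fell, CRE matches numbered 1 and E-box matches 2 of 16. The member windows had a median of 60.3% G and C, against 52.3% over all windows.

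The ADP/ATP carrier and the phosphate carrier supply ATP synthase and export its product. Slc25a4, the ADP/ATP carrier of heart and muscle and the brightest member, had a lowest value of 10.73, a median of 10.96 and a highest value of 11.16 in denervated arrays, against 11.11, 11.20 and 11.33 in sham arrays. Only the top of the denervated range, that of replicate 2, reached into the sham range. Slc25a4 fell by 0.25 ± 0.07, or 1.19-fold (adjusted p = 0.0215), and missed the threshold once sham replicate 1 was left out (adjusted p = 0.0511). Without denervated replicate 2 its difference was -0.29 (limma adjusted p = 0.00515). A second, dimmer probe set of Slc25a4 stood at -0.17 ± 0.08.

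Slc25a3, the phosphate carrier, ranged from 9.46 over a median of 9.58 to 9.85 in denervated arrays, against 9.82, 9.84 and 9.92 in sham arrays. It fell by 0.23 ± 0.07 (adjusted p = 0.0168), and an exact rank-sum test adjusted over all genes did not call it (adjusted p = 0.0850). Denervated replicate 2 stood at the sham mean for this gene (0.00), and the other 5 denervated arrays were 0.16 to 0.39 below it. Without denervated replicate 2 the difference of Slc25a3 was -0.28 (limma adjusted p = 0.0014). Slc25a31, the ADP/ATP carrier known from testis, was near the bottom of the brightness range, with means of 3.07 in denervated and 3.13 in sham arrays. Of 12 measured ATP synthase genes, with which these carriers work, 8 fell (66.7%), 1 rose and 3 were not called, with a median of -0.24. All 12 were brighter than the median gene. Over all genes 16.9% were called lower, and 25.9% of those brighter than the median gene. The subunits Atp5f1b (-0.41 ± 0.07) and Atp5f1a (-0.39 ± 0.06) were among the largest falls, and Atp5pd of the stalk rose by 0.25 ± 0.08.

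Carriers of di- and tricarboxylates connect the citrate cycle with the cytosol. Slc25a11, which exchanges 2-oxoglutarate for malate in the malate-aspartate shuttle, had values of 9.81 at the lowest, 9.93 at the median and 10.04 at the highest in denervated arrays, against 10.16, 10.24 and 10.34 in sham arrays. The groups were well apart, and Slc25a11 fell by 0.33 ± 0.06, or 1.25-fold (adjusted p = 0.00117).

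Slc25a10, the dicarboxylate carrier, ranged from 9.22 over 9.59 to 9.76 in denervated arrays, against 9.64, 9.83 and 9.94 in sham arrays. It was called at -0.26 ± 0.09 (adjusted p = 0.0454), close to the threshold. The call was lost without denervated replicate 1, 3, 5 or 6 or sham replicate 1, 2, 3 or 5 (adjusted p of 0.0549 to 0.0972), after a further quantile normalization (0.0632) and with array weights (0.0636), and when all probe sets were tested together (0.0855). Slc25a21, which carries 2-oxoadipate for lysine breakdown, was dim and ranged from 3.39 over 3.76 to 3.93 in denervated arrays, against 3.89, 4.03 and 4.23 in sham arrays. Slc25a21 fell by 0.34 ± 0.09 (adjusted p = 0.0141). Slc25a1, the citrate carrier that feeds fatty acid synthesis, was not called (-0.11 ± 0.07).

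The aspartate/glutamate carriers form the other arm of the malate-aspartate shuttle and are regulated by calcium. Slc25a12, also called aralar and known from muscle and brain, ranged from 8.53 over 8.77 to 9.27 in denervated arrays, against 8.91, 9.27 and 9.36 in sham arrays. The groups overlapped only through denervated replicate 2, which stood 0.05 above the sham mean. Slc25a12 fell by 0.40 ± 0.11 (adjusted p = 0.0184), and the exact rank-sum test did not call it (adjusted p = 0.0576). Without denervated replicate 2 its difference was -0.49 (adjusted p = 0.000971).

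Slc25a13, or citrin, the form of liver, was not called at 0.25 ± 0.12 (adjusted p = 0.148), with 0.78 above the sham mean in denervated replicate 6. The remaining denervated arrays stood at -0.07 to 0.33 relative to it. Slc25a22 and Slc25a18, the glutamate carriers, were not called either (0.01 ± 0.07 and 0.09 ± 0.08). Among 6 measured enzymes of the malate-aspartate and glycerol phosphate shuttles, Mdh1 (-0.30 ± 0.05) and Mdh2 (-0.19 ± 0.06), the malate dehydrogenases of cytosol and matrix, fell. These 2 are 33.3% of the list, against 16.9% of all genes and 25.9% of those brighter than the median gene. Gpd2, the mitochondrial glycerol phosphate dehydrogenase, rose by 0.26 ± 0.08, and the aminotransferases Got1 (-0.28 ± 0.11) and Got2 (-0.18 ± 0.08) were not called.

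Of 5 carriers of ornithine, basic and branched-chain amino acids or glycine, 2 fell and 3 were not called. The share that fell, 40.0%, was near the 40.9% of all 44 members. Slc25a2, an ornithine carrier and close copy of Slc25a15 with which it may share probe signal, ranged from 6.31 over 6.48 to 6.67 in denervated arrays, against 6.66, 6.75 and 6.91 in sham arrays. The ranges overlapped only at their edges, and Slc25a2 fell by 0.29 ± 0.07 (adjusted p = 0.0095). Slc25a38, the glycine carrier that serves heme synthesis, had values of 7.00 at the lowest, 7.04 at the median and 7.27 at the highest in denervated arrays, against 7.12, 7.28 and 7.38 in sham arrays. Its highest denervated value was that of replicate 3, and the other 5 lay between 7.00 and 7.08. Slc25a38 was called at -0.19 ± 0.07 (adjusted p = 0.0462), and the call was lost without denervated replicate 1, 2, 4, 5 or 6 or sham replicate 1, 2, 4 or 5 (adjusted p of 0.0637 to 0.102) and when all probe sets were tested together (0.0927).

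Slc25a15, the main ornithine carrier of the urea cycle (-0.06 ± 0.08), Slc25a29, a carrier of basic amino acids (-0.04 ± 0.07), and Slc25a44, a carrier of branched-chain amino acids (-0.05 ± 0.09), were not called. Among 9 measured genes of ornithine, proline and glutamate metabolism 3 rose (33.3%, against 11.9% of all genes) and 3 fell (33.3%, against 16.9%). All 9 were brighter than the median gene, and of all such genes 15.0% rose and 25.9% fell. The arginase Arg1 (1.06 ± 0.22) and the proline synthesis genes Aldh18a1 (0.97 ± 0.19) and Pycr1 (0.83 ± 0.21) rose, while Prodh, which breaks down proline, fell by 0.56 ± 0.19. The other arginase, Arg2 (-0.33 ± 0.11), and Glud1 (-0.24 ± 0.05) also fell. Pycr3 of proline synthesis (0.07 ± 0.07), Oat (0.06 ± 0.07) and Odc1 (0.04 ± 0.09) were not called.

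Nucleotide and coenzyme carriers had 4 falls among 9 members (44.4%), near the 40.9% of all 44 members. The groups did not overlap for these 4, and for 10 of all 44 members. Slc25a33, which carries pyrimidine nucleotides for mitochondrial DNA and RNA synthesis, ranged from 6.33 over 6.62 to 6.81 in denervated arrays, against 6.84, 6.88 and 7.11 in sham arrays. It fell by 0.34 ± 0.09 (adjusted p = 0.0106). Slc25a16, linked to the entry of coenzyme A, had 8.78, 8.84 and 8.92 as lowest, median and highest denervated values, against 8.96, 9.07 and 9.24 in sham arrays, and fell by 0.23 ± 0.06 (adjusted p = 0.0122). Denervated replicate 2 lay within the range of the other denervated arrays for Slc25a16.

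Slc25a26, the carrier of the methyl donor S-adenosylmethionine, ranged from 6.75 over 6.82 to 6.91 in denervated arrays, against 6.95, 7.01 and 7.19 in sham arrays, a fall of 0.20 ± 0.06 (adjusted p = 0.0195). Slc25a17, the peroxisomal carrier of coenzyme A and related cofactors, ranged from 9.00 over 9.03 to 9.24 in denervated arrays, against 9.24, 9.26 and 9.30 in sham arrays. The highest denervated value was again that of replicate 2, just under the lowest sham value. Slc25a17 fell by 0.19 ± 0.06 (adjusted p = 0.0224), and the call was lost without denervated replicate 5 (adjusted p = 0.0514) and when all probe sets were tested together (0.0527).

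The other 5 nucleotide and coenzyme carriers were not called. Slc25a42, a coenzyme A carrier, was closest to the threshold at -0.19 ± 0.07 (adjusted p = 0.0597), and was called without denervated replicate 1 (0.0461) or sham replicate 3 (0.0446), after a further quantile normalization (0.0243), after median centring (0.0355) and without the dimmest genes (0.0411). Slc25a32, the folate and FAD carrier, stood at -0.09 ± 0.06, Slc25a36, a pyrimidine nucleotide carrier, at -0.05 ± 0.06 and Slc25a51, the NAD carrier, at 0.15 ± 0.10. Slc25a52, a close copy of Slc25a51, was dim (3.79 in denervated and 4.18 in sham arrays) and varied widely, at -0.39 ± 0.20. On the folate side, the mitochondrial enzymes Aldh1l2 (1.41 ± 0.26) and Mthfd2 (1.05 ± 0.27) rose. So did Psat1 of serine synthesis (0.81 ± 0.22) and the serine carrier Sfxn1 (0.36 ± 0.09), and the cytosolic Shmt1 fell by 0.49 ± 0.11. The mitochondrial Shmt2 (-0.01 ± 0.14), Mthfd2l (-0.05 ± 0.09) and Mthfd1l (0.22 ± 0.08) and the cytosolic Mthfd1 (-0.27 ± 0.11) were not called. In all, 4 of 11 measured genes of serine, glycine and folate metabolism rose (36.4%, against 11.9% of all genes) and 1 fell (9.09%, against 16.9%).

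Among carriers for glutathione and iron, Slc25a40 fell. It takes glutathione into mitochondria together with its relative Slc25a39. Slc25a40 ranged from 6.53 over 6.60 to 6.85 in denervated arrays, against 7.07, 7.17 and 7.25 in sham arrays. Every denervated array was below every sham array, with denervated replicate 2 the highest of its group, and the fall was 0.52 ± 0.07, or 1.43-fold (adjusted p = 0.000257). Slc25a39 stood at 0.00 ± 0.06 and was not called. Its values overlapped almost wholly, from 7.64 over 7.79 to 7.85 in denervated arrays, against 7.71, 7.78 and 7.88 in sham arrays. RefSeq lists 8 pseudogenes of Slc25a39, 2 of Slc25a3 and 1 each of Slc25a4, Slc25a21, Slc25a33, Slc25a38 and 4 uncalled members, and whether the probes of these genes also catch pseudogene transcripts was not tested.

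Of 7 measured genes of glutathione and peroxide removal 4 fell (57.1%, against 16.9% of all genes), 1 rose and 2 were not called. All 7 were brighter than the median gene, and 25.9% of all such genes fell. Gclc (-0.49 ± 0.09) and Gclm (-0.37 ± 0.06), the subunits of the rate-limiting enzyme of glutathione synthesis, the reductase Gsr (-0.34 ± 0.08) and the mitochondrial peroxiredoxin Prdx3 (-0.28 ± 0.06) fell, while the peroxidase Gpx1 rose by 0.54 ± 0.11. The synthetase Gss (-0.06 ± 0.08) and the peroxidase Gpx4 (-0.07 ± 0.09) were the uncalled ones. The mitoferrins Slc25a37 (-0.06 ± 0.08), the iron importer of red cell precursors, and Slc25a28 (0.09 ± 0.14), its form in other tissues, were not called. Slc25a28 had its highest value, 8.85, in denervated replicate 6, and the group's remaining values lay between 7.93 and 8.22. Of 11 measured genes for iron-sulfur clusters and heme, 5 fell (45.5%, against 16.9% of all genes) and 0 rose. All 11 were brighter than the median gene, and of all such genes 25.9% fell. Among the 5 were Nfs1, which supplies sulfur for the clusters (-0.45 ± 0.07), and Urod of the heme pathway (-0.45 ± 0.06).

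Relatives of the uncoupling proteins fell in part. Slc25a30 ranged from 7.91 over 8.21 to 8.48 in denervated arrays, against 8.18, 8.59 and 8.97 in sham arrays, with wide spread in both groups. It was called at -0.39 ± 0.13 (adjusted p = 0.0362), and the call was lost without denervated replicate 2, 4 or 6 or sham replicate 1, 2, 4 or 5 (adjusted p of 0.0550 to 0.0799), with the exact rank-sum test (0.0850) and when all probe sets were tested together (0.0671). Slc25a27, also called Ucp4 and known from brain, ranged from 5.90 over 6.00 to 6.07 in denervated arrays, against 6.11, 6.25 and 6.43 in sham arrays, without overlap. It fell by 0.26 ± 0.06 (adjusted p = 0.00687). Slc25a14 was not called (-0.09 ± 0.07). The uncoupling proteins outside the symbol rule were not called, with Ucp2 at 0.24 ± 0.10, Ucp3 at -0.09 ± 0.12 and Ucp1 at 0.11 ± 0.09.

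Slc25a35, whose substrate is not firmly known, had the next largest fall after Slc25a23. Its values were 7.05 at the lowest, 7.35 at the median and 7.56 at the highest in denervated arrays, against 7.81, 8.01 and 8.09 in sham arrays. All denervated arrays were below all sham arrays, replicate 2 included, and Slc25a35 fell by 0.66 ± 0.09, or 1.58-fold (adjusted p = 0.000311). Slc25a45 was not called at 0.25 ± 0.12 (adjusted p = 0.128), and was called higher without denervated replicate 3 (0.33, adjusted p = 0.0310). Slc25a34 (0.03 ± 0.06) and Slc25a47 (-0.07 ± 0.07) were not called. Slc25a20, the acylcarnitine carrier of fatty acid oxidation, stood at -0.08 ± 0.05 and Slc25a46 at -0.01 ± 0.06, neither of them called. Slc25a19l1 (-0.22 ± 0.24) and Slc25a54 (-0.17 ± 0.09) were dim and not called, and Slc25a54 was called with array weights (-0.23, adjusted p = 0.0477).

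**Figure D4:**
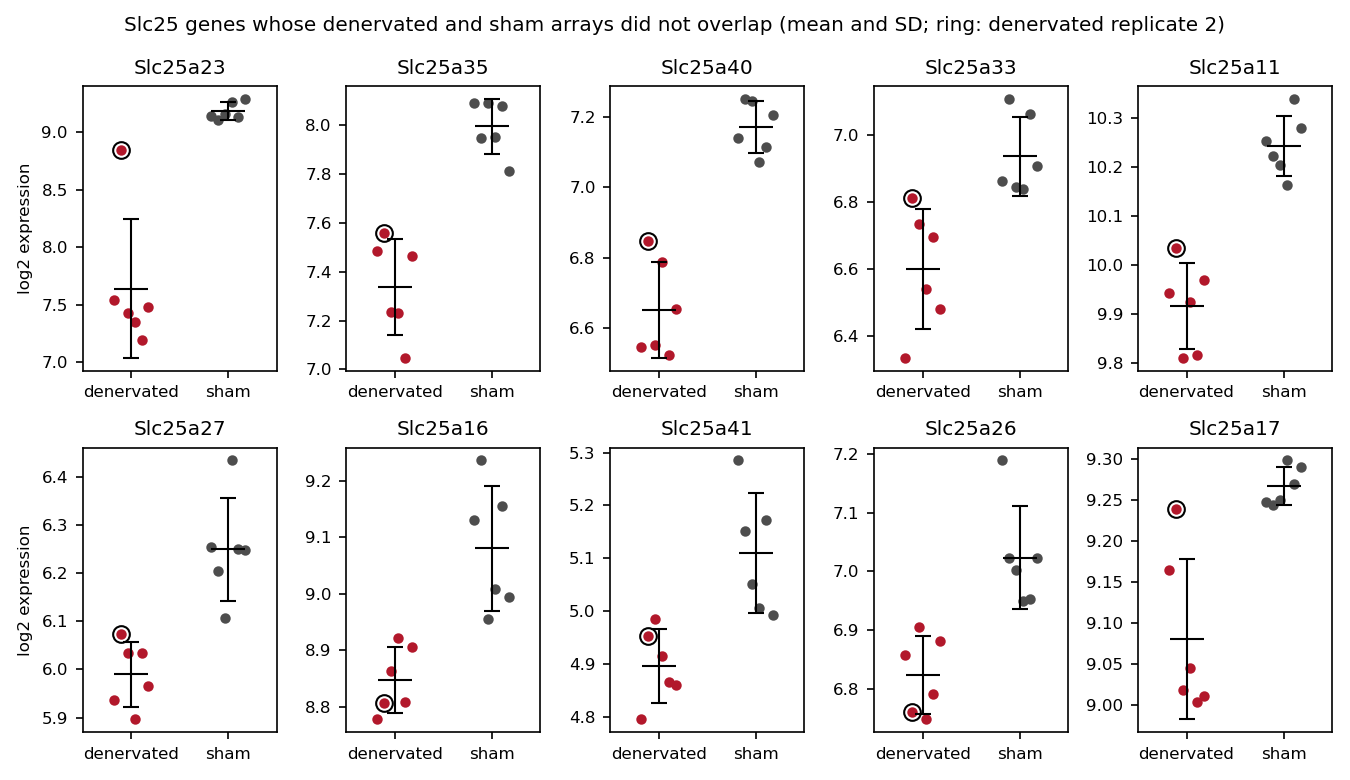
Log2 expression on each array for the 10 Slc25 genes whose groups did not overlap, denervated left and sham right, with the group mean and SD (n = 6 each) and a ring around denervated replicate 2. The ringed value is the highest denervated one, nearest to the sham values, for 7 of the 10 genes, among them Slc25a23 (8.85) and Slc25a17 (9.24), and lies within its group for the other 3, Slc25a16, Slc25a41 and Slc25a26.

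Related carriers did not all change alike. For 11 pairs of members with like substrates, the difference of the genes' changes was tested by an exact two-sided permutation over the 12 arrays. The p-values were adjusted over the 11 pairs, and 0.00216 is the smallest p the permutation can give. The pairs were chosen after values were seen, so these p-values describe the chosen pairs and are not an independent test that relatives differ. Slc25a23 fell further than Slc25a25, by -1.39 (95% interval -1.94 to -0.85, exact permutation p = 0.00216, adjusted p = 0.0119), and than Slc25a24, by -1.39 (-2.02 to -0.77, adjusted exact p = 0.0159). Slc25a40 fell further than Slc25a39 (-0.51, -0.70 to -0.33, adjusted exact p = 0.0119) and Slc25a33 further than Slc25a36 (-0.29, -0.48 to -0.11, adjusted exact p = 0.0238). These 4 differences kept their calls without each array in turn.

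Slc25a12 also differed in its change from Slc25a13 (-0.65, -1.10 to -0.20, adjusted exact p = 0.0286). That call was lost without denervated replicate 6 (-0.54, adjusted exact p = 0.0524), sham replicate 1 (-0.63, 0.0556) or sham replicate 6 (-0.58, 0.0556). Slc25a2 fell further than Slc25a15 (-0.22, -0.39 to -0.06, adjusted exact p = 0.0476), a call lost without denervated replicate 1, 3, 5 or 6 or sham replicate 1, 2, 3 or 6 (adjusted exact p of 0.0556 to 0.0873). For the other 5 pairs the interval included 0. The widest was that of Slc25a24 and Slc25a25 (-0.45 to 0.45) and the narrowest that of Slc25a16 and Slc25a42 (-0.18 to 0.10). The pair of Slc25a14 and Slc25a30 (-0.04 to 0.64) passed the threshold of the exact permutation test without denervated replicate 1 (0.38, adjusted exact p = 0.0476).

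**Figure D5:**
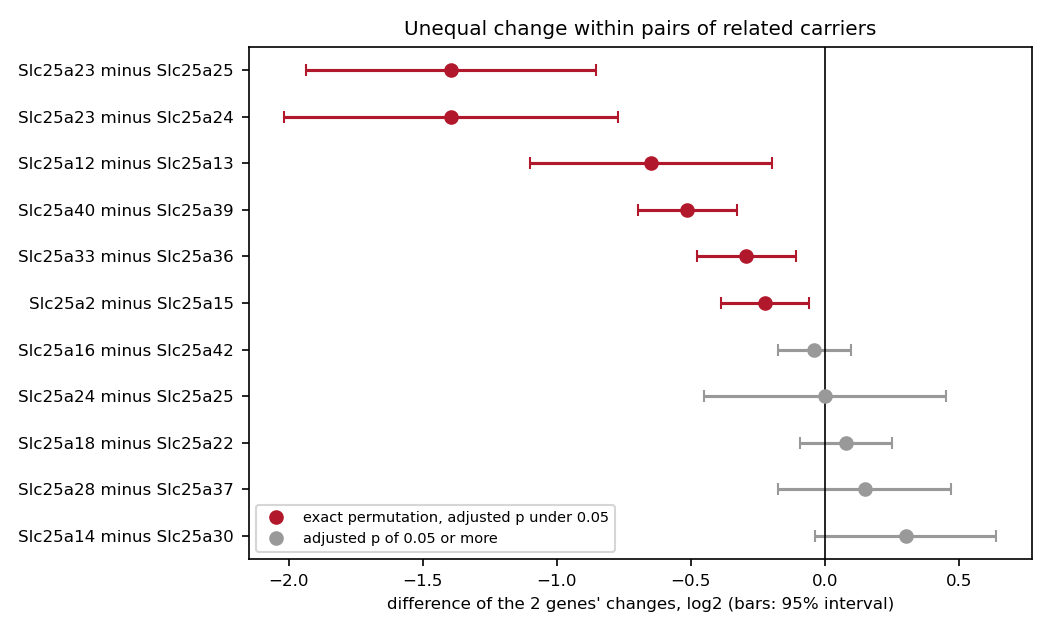
Difference between the log2 changes of the 2 genes of each pair (points, with 95% intervals), the first gene's change minus the second's, with pairs at an adjusted exact permutation p under 0.05 in red. The 2 pairs with Slc25a23 lie near -1.39, and 6 of the 11 pairs are red. The side of 0 on which a pair lies depends on which gene is named first, and the pairs were chosen after values were seen.

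Other genes of mitochondrial transport and upkeep were called lower in part. Over all genes 16.9% were called lower, and 25.9% of those brighter than the median gene. Of 23 genes for protein import and upkeep 7 fell (30.4%) and 0 rose (median -0.17), with Timm8a1, a chaperone of carrier import (-0.57 ± 0.10), the translocase Timm17a (-0.39 ± 0.07) and the import receptor Tomm70 (-0.36 ± 0.08) foremost. Of 14 other channels and carriers 3 fell (21.4%, near the share of all genes) and 0 rose (median -0.04), namely the outer membrane pores Vdac2 (-0.27 ± 0.06) and Vdac1 (-0.21 ± 0.07) and the peroxisomal Abcd3 (-0.35 ± 0.10). Of 7 calcium uniporter genes 2 fell (28.6%), the pore Mcu (-0.36 ± 0.05) and its regulator Micu3 (-0.68 ± 0.11), and Mcub, a pore subunit that dampens transport, rose by 0.35 ± 0.10. Of 8 genes for entry of pyruvate and fatty acids 4 fell and 0 rose, the largest falls being those of the pyruvate dehydrogenase genes Pdhb (-0.49 ± 0.07) and Pdha1 (-0.40 ± 0.05). Of 6 genes around citrate and fatty acid synthesis 4 fell and 0 rose, with the desaturase Scd at -3.01 ± 0.26 and citrate synthase, Cs, at -0.18 ± 0.05.

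Markers of several cell types moved with the same contrast. All 8 measured urothelial markers fell (Krt20 fell by 1.80 and Grhl3 fell by 0.88), and their mean level lay between 10.10 and 10.54 in denervated arrays, against 11.03 to 11.35 in sham arrays. All 10 macrophage markers rose (Cd68 by 2.20, Lyz2 by 2.11), with mean levels of 9.67 to 10.42 in denervated and 8.66 to 8.86 in sham arrays. Of 8 smooth muscle markers 5 fell (Synpo2 fell by 0.99 and Myocd fell by 0.89), Smtn rose by 0.51 and Des (-0.10) and Actg2 (-0.01) were not called. Their mean level lay between 11.06 and 11.75 in denervated arrays, highest in replicate 2, against 11.70 to 11.90 in sham arrays. In whole bladder, fewer cells of a type and less RNA per cell cannot be told apart, and the part of these markers in the falls of Slc25 genes was not tested.

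All 8 cell division markers rose, at mean levels of 6.15 (replicate 2) to 8.19 in denervated arrays, against 5.42 to 7.03 (replicate 3) in sham arrays. Of 10 adipocyte markers Adrb3 fell by 1.07 and Fabp4 fell by 0.40, 8 were not called, with mean levels of 6.06 to 6.90 in denervated and 6.53 to 6.91 in sham arrays. Of 6 markers of skeletal muscle Ckm (-1.07) and Tnnc2 (-0.78) fell and Acta1 (1.56) rose, at mean levels of 7.42 to 7.76 in denervated and 7.65 to 8.04 in sham arrays. None of 6 measured erythroid markers was called, with mean levels of 5.39 to 5.86 in denervated and 5.59 to 5.72 in sham arrays. Of 8 neutrophil markers 4 rose, Csf3r by 1.51 the most, with mean levels of 4.85 to 5.73 in denervated and 4.71 to 4.86 in sham arrays.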

How the data were processed

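The authors deposited log2 expression values for 36685 probe sets on 12 arrays, which per the submitters' processing notes were made by RMA in Affymetrix Expression Console 1.4.1.46. RMA subtracts background, quantile-normalizes and combines probes, so a shift shared by all genes cannot be seen. The genome build is not given in the sources used here. Groups and replicate numbers came from the sample titles. Of the probe sets, 18511 name 1 gene in the platform table, 575 name several and 17599 are unnamed here. All 44 members matched RefSeq (GRCr8) by gene ID, and 0 symbols needed updating. The table holds no detection calls, and precision is limited by the number of arrays. No batch was tested.

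The values were tested as deposited with limma 3.58.1 in R 4.3.3 (lmFit, eBayes, two-sided, Benjamini-Hochberg over 18166 genes), checked on simulated data. The alternatives were scaling, filters on dim genes, variance models, array weights, the replicate block, probe set rules, an exact rank-sum test and leaving out each array. Same-numbered arrays were not paired, since correlations of their deviations were -0.11 to 0.10. Called members and the 5 brightest were given with both groups' ranges, uncalled members mostly with their difference alone, and up to 4 called genes of each list were named, with some uncalled ones by their value. Prdx3, Atp5pd, Sfxn1, Arg2, Glud1 and markers used to check the tissue label lie outside this rule and were chosen after their values were seen. Members, lists and role groups were chosen with earlier results of these data known. The pairs with their alternatives, the motifs, the Nduf, Mrpl, Mrps and other Slc sets and the split by brightness were chosen after values were seen. Promoters were first to be shown for the 3 largest falls, then, once the matches were known, for called members with a match, so the windows shown are not typical, since 13 of 16 held none. Intervals of pair differences come from the standard error over arrays.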

Additional observations from a re-analysis of the deposited data

Results flagged for a closer look

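Among the 88 sets of 6 values (44 members in each group), 7 held 1 value that lay far from the other 5 by Dixon's criterion, and chance alone gives about 1 in 20. In denervated arrays, Slc25a23 stood at 8.85 in replicate 2, against 7.19 to 7.54 in the other 5, the gap making up 0.794 of the range. Slc25a38 was at 7.27 in denervated replicate 3, against 7.00 to 7.08. In denervated replicate 6, Slc25a28 was at 8.85, against 7.93 to 8.22, and Slc25a15 at 8.10, against 7.84 to 7.93. In sham arrays, Slc25a26 was at 7.19 in replicate 1, against 6.95 to 7.02, and Slc25a29 was at 6.00 in replicate 1, against 5.74 to 5.83. Slc25a34 was at 5.73 in sham replicate 6, against 5.95 to 6.01.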

How the results depend on the processing

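Members called lower numbered 18, and 14 to 19 under the alternatives other than the replicate block and the test of brighter genes alone (13 of 26). Without each array in turn it was 14 to 18, with 0 to 1 called higher, and 4374 to 6273 genes were called over the whole array, against 5216. With the replicate number as a block in the fit, 9 members were called lower and 4460 genes in all. The block ended the calls of Slc25a3, Slc25a4, Slc25a10, Slc25a12, Slc25a16, Slc25a17, Slc25a26, Slc25a38 and Slc25a41, at adjusted p of 0.0503 (Slc25a26) to 0.112 (Slc25a38). Arrays of equal number were not shown to be pairs, and 1 of 6 denervated arrays correlated best with the sham array of its own number. Of the 18 called members, 8 kept their call under every alternative that tested them and 13 without each array in turn, and 0 changed sign. Called members that lost their call without some array were Slc25a4, Slc25a10, Slc25a17, Slc25a30 and Slc25a38. Falls of dim members such as Slc25a21 and Slc25a41 have an unknown signal over background.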
